A study of Mus musculus with 5 samples.

Results

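Conventional type 1 dendritic cells (cDC1) were examined in kidneys of mice given aristolochic acid I (AAI), a plant toxin that injures the tubule. Across 5 droplet libraries, 202 of 60043 kept cells were chosen as cDC1 by a rule on raw UMIs (unique molecular identifiers, the counts of captured RNA molecules). A kept cell had at most 30% of its UMIs from mitochondrial genes and at least 200 detected genes. A cDC1 also held at least 2 UMIs of Xcr1 and Clec9a together, at least 5 UMIs of H2-Aa, at most 1 UMI of the CD3 genes Cd3e, Cd3d and Cd3g, at most 3 UMIs of C1qa, C1qb and C1qc, and at most 2 UMIs of Fscn1. The levels of these 10 genes are therefore a description of the choice and not a result.

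All mice were wild-type C57BL/6 males aged 8 to 10 weeks. AKI kidneys (libraries AKI 1 and AKI 2) were taken at the end of 2 weeks in which 3 mg/kg AAI was injected into the peritoneum every 3 days. CKD kidneys (libraries CKD 1 and CKD 2) were taken after the same injections and a further 2 weeks without AAI. Control kidneys, given vehicle, made up 1 library. The labels do not say whether a library is 1 mouse, so the p-values below measure only the spread between these libraries. The control had no replicate and its values are given without a test. It was also exported in another file format than the other 4 libraries, so a difference between the control and the AAI libraries and a difference between the exports cannot be told apart.

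cDC1 are the antigen-presenting cells that take up dead cells through CLEC9A, carry the chemokine receptor XCR1, and present captured antigen on MHC class I to CD8+ T lymphocytes, a process called cross-presentation. Their development depends on the transcription factors IRF8 and BATF3. The kidney also holds conventional type 2 dendritic cells (cDC2), which mainly serve CD4+ T lymphocytes, and both types can mature, turn on CCR7 and migrate to lymph nodes.

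The 202 cDC1 fell into 72 cells in the control, 32 and 33 in the AKI libraries, and 40 and 25 in the CKD libraries. They were deep cells, with median UMI counts of 12772 in the control, 15924.5 and 18945 in the AKI libraries, and 11423.5 and 18412 in the CKD libraries, against medians between 3151 and 5774.5 over all kept cells of a library. Their median mitochondrial share lay between 2.11% and 2.86%. Summed over cells, the libraries gave between 507487 and 951567 cDC1 UMIs. Levels below are UMIs per 10000 UMIs of these sums, and where values are given for AKI or CKD libraries, library 1 comes first. As comparison cells under the same filters, 610 cDC2 (Cd209a and Clec10a at least 2 UMIs, no Xcr1 or Clec9a UMI), 179 mature dendritic cells (at least 3 Fscn1 UMIs) and 3448 C1q macrophages (C1q genes at least 4 UMIs) were gated. A gate of 25323 T lymphocytes (CD3 genes at least 2 UMIs, H2-Aa at most 1) served to show how much of a transcript was present in cells of another lineage, since free RNA was not removed from these counts.

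Any pair of libraries shared between 19 and 132 kept barcodes, the most between the control and CKD 2. Of those, 99 held over 20 times fewer UMIs in the control than in CKD 2. None of the 202 cDC1 was such a cell. Doublets were not called.

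Of cells meeting every other limit, 161 held 3 or more UMIs of Xcr1 and Clec9a, 41 held exactly 2, 126 held 1 and 3261 held none. The level of Irf8 was 13.6 in the first set, 11.3 in cells with 2, 6.93 in cells with 1 and 0.977 in cells with none. For Naaa, a lysosomal amidase gene high in cDC1, the levels in the same order were 11.2, 7.33, 3.18 and 0.496. Wdfy4 and Cadm1, also cDC1 genes, stood at 3.74, 3.63, 1.52 and 0.344, and at 0.893, 0.340, 0.0987 and 0.223. By Cadm1 the cells with 1 UMI lay below the cells with none. Over all libraries they stood between the chosen cells and the cells with none by Irf8, Naaa and Wdfy4. In the control alone Irf8 did not follow that order, at 16.7 in its 15 cells with 1 UMI, 16.0 in its cells with 2, a lower level in those with 3 or more, and 1.94 in those with none. At the other limits, 22 of the chosen cells held 1 CD3 UMI, 5 held 5 or 6 H2-Aa UMIs, 3 held 3 C1q UMIs and 1 held 2 Fscn1 UMIs. Just outside, 3 cells failed only by holding 2 CD3 UMIs, 2 by holding 4 C1q UMIs, 1 by holding 3 or 4 H2-Aa UMIs, and 0 by holding 3 Fscn1 UMIs.

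The label was checked against markers that the rule did not use. Every gene of a cDC1 identity list with a level of at least 0.5 in either cell type (16 of 16) was at least 2-fold higher in cDC1 than in cDC2 and higher in 5 of 5 libraries. Over all genes with such a level this held for 161 of 2591, or 6.21%, and 247, or 9.53%, were lower by the same measure. These cells were selected on Xcr1 and Clec9a, and genes that accompany them follow from that choice, so the contrast is a description with no test.

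Irf8 stood at 15.1 in the control, 10.1 and 13.0 in the AKI libraries, and 12.3 and 14.4 in the CKD libraries, and at 1.60 over all cDC2. Batf3, its partner factor, stood at 1.60, 1.95, 2.11, 1.73 and 1.88 in the same order of libraries, 4.18-fold above cDC2, but at 0.861 to 2.05 in the mature dendritic cells of the AAI libraries. Wdfy4, which is required for cross-presentation of cell-associated antigen, stood at 3.68, 3.05, 3.95, 3.60 and 4.29. No library stood apart from the others for these genes. Irf8 was detected in 196 of the 202 cells, Naaa in 192, Wdfy4 in 184 and Batf3 in 173. Of 7 cDC2 markers with a level that no gate used, 6 were at least 2-fold lower in cDC1 than in cDC2 and 1, Klf4, was not. Klf4, a transcription factor gene, stood at 3.55 over all cDC1 and 3.53 over all cDC2. Irf4, another factor of cDC2, was detected in 12 cDC1 and Sirpa in 9, as was Cd209a, which the cDC2 gate used, while S100a4 was detected in 49. Mgl2, a lectin gene of cDC2, was detected in 7 cDC1 but reached 2.43 in AKI 2, while the other libraries lay at 0.0591 or below.

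**Figure D1:**
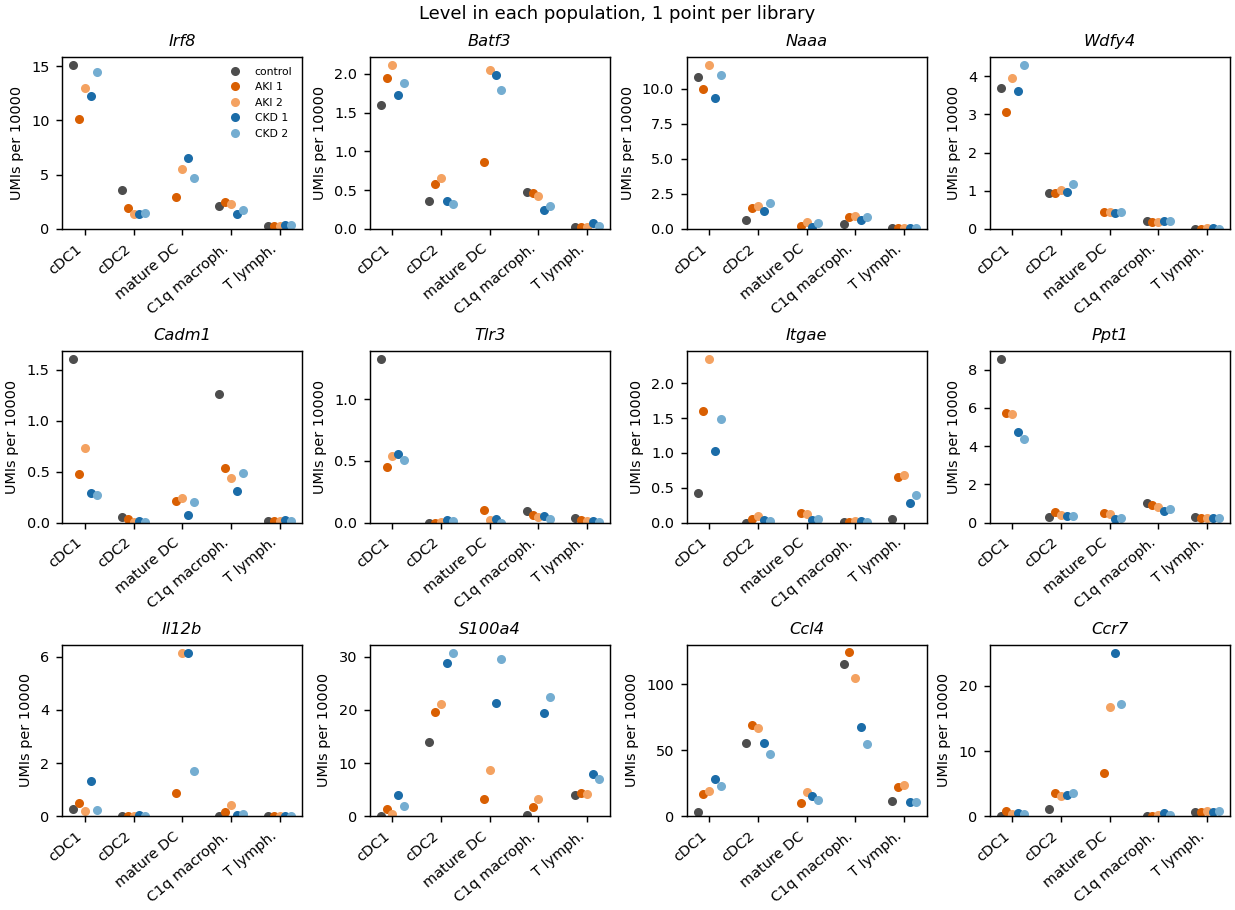
Levels of 12 genes in UMIs per 10000 (linear axes from 0), with a point for each library, in cDC1, cDC2, mature dendritic cells (no control point, as that library held 2 such cells), C1q macrophages and the T lymphocyte gate. The upper 8 panels are cDC1 identity genes, for which every cDC1 point lies above the cDC2 point of its library, as for Irf8 at 10.1 to 15.1 against 1.60 over all cDC2, while S100a4, Ccl4 and Ccr7 in the lowest panels lie higher in cDC2.

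The genes with the largest ratio to cDC2 included Gcsam and Gpr141b, which had no UMI in 610 cDC2. Gcsam was at least 182-fold and Gpr141b at least 185-fold higher in cDC1, taking 3 UMIs over all cDC2 as the floor. Snx22, a sorting nexin gene, stood at 0.588 over all cDC1, from 183 UMIs in 100 cells, and gave 1 UMI in cDC2. Tlr3, the endosomal receptor for double-stranded RNA, was 74.7-fold higher, Dnase1l3, a secreted DNase, 47.3-fold, and Cadm1, an adhesion molecule of cDC1, 46.3-fold. Itgae, the CD103 integrin chain, was 27.5-fold higher, Cd36, a scavenger receptor, 25.4-fold, Ppt1, a lysosomal thioesterase, 16.5-fold, and Rtl8a 14.6-fold. These ratios are to cDC2 only. Dnase1l3 stood at 0.964 over all cDC1, 0.743 in mature dendritic cells and 0.561 in C1q macrophages, and Cadm1 at 0.810, 0.171 and 0.525. In CKD 1 and CKD 2 Cadm1 was higher in C1q macrophages, at 0.308 and 0.486, than in cDC1, at 0.295 and 0.272. In the other direction, Clec4n was 71.8-fold lower than in cDC2, Ccr1 62.0-fold, AA467197 29.0-fold, Pilra 26.3-fold, Ccl17 24.1-fold, Itgam 22.4-fold, S100a4 20.3-fold, Ms4a6d 20.1-fold, Creb5 19.6-fold and Areg 17.9-fold.

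Of 17 genes for presentation on MHC class I with a level, 4 were at least 2-fold higher and 1 was lower. Over all genes the shares were 6.21% higher and 9.53% lower. The peptide transporter genes Tap1 and Tap2 were 2.10-fold and 2.19-fold higher, the immunoproteasome gene Psmb9 3.09-fold, and Rab43, a GTPase of cross-presentation, 2.43-fold. Cybb, the NADPH oxidase subunit, was 9.83-fold lower. The class I genes H2-K1 and B2m were near the cDC2 level, at 7.73 against 8.85 and at 13.8 against 14.6. Of 11 MHC class II pathway genes, none was 2-fold higher and 3 were lower. H2-DMb2 was among the latter, at 1.26 against 3.64.

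The secreted and sensing genes were mostly lower than in cDC2, where 9.53% of all genes with a level were at least 2-fold lower and 6.21% higher in cDC1. Of 10 cytokine and chemokine genes, 7 were at least 2-fold lower and none was higher, of 8 innate sensing genes 5 were lower, of 16 interferon-stimulated genes 9 were lower and 1, Irf7, was higher, and of 9 genes of mature dendritic cells 5 were lower. Il1b stood at 4.41 over all cDC1 against 14.9 in cDC2, and Ccr7 at 0.357 against 3.23. Il12b, the IL-12 subunit that drives type 1 responses, went the other way. It stood at 0.273 in the control, 0.512 and 0.190 in the AKI libraries, and 1.34 and 0.252 in the CKD libraries, from 25 cells in all, and was 24.6-fold above the cDC2 level of 0.0189. CKD 1 was the high library. Mature dendritic cells held more, between 0.887 and 6.15 in the 4 AAI libraries.

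Receptors included Flt3, which binds the growth factor that maintains dendritic cells, at 0.903 over all cDC1 against 0.268 in cDC2. Ccr2, a receptor for monocyte chemokines, stood at 2.98 against 1.33. Cxcr3, the receptor for CXCL9 and CXCL10, was 19.5-fold above cDC2, at 0.673 in the control, 0.276 and 0.302 in the AKI libraries, and 0.118 and 0.407 in the CKD libraries. T lymphocytes also carry Cxcr3, at 0.751 in the T gate, above the cDC1 level.

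The share of cDC1 among kept cells addressed how the population changed between the phases. It was 0.785% in the control (95% exact binomial interval 0.615% to 0.988%), 0.286% and 0.304% in the AKI libraries, and 0.207% and 0.263% in the CKD libraries. The mean was 0.295% ± 0.0130 in AKI and 0.235% ± 0.0395 in CKD (SD, n = 2 libraries each). The groups did not overlap, and the exact 2-sided permutation p was 0.333, the smallest that 2 libraries against 2 allow, so this design cannot reach 0.05. Whether the groups overlapped depended on the denominator and on depth. Among cells outside the T lymphocyte gate the shares were 0.907% in the control, 0.614% and 0.613% in the AKI libraries, and 0.316% and 0.708% in the CKD libraries, and there the groups overlapped. Among kept cells with a Ptprc (CD45) UMI the control stood at 2.18%, AKI at 0.370% and 0.393%, and CKD at 0.347% and 0.311%, and the groups did not overlap. Cells were also thinned to 1500 UMIs, which left out shallower kept cells, from 674 in CKD 2 to 1713 in the control. Among the thinned cells the shares were 0.201%, 0.0104%, 0.0520%, 0.0340% and 0%, the last from 0 cells, and the groups overlapped. The control was the highest library under each of these 4 denominators or depths.

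cDC1 were also set against cDC2, which were gated with the same limit of UMIs. They made up 63.2% of cDC1 and cDC2 together in the control (53.6% to 72.0%), 28.8% in AKI 1 (20.6% to 38.2%), 23.9% in AKI 2 (17.1% to 31.9%), 14.6% in CKD 1 (10.6% to 19.3%) and 14.3% in CKD 2 (9.46% to 20.4%). The control was highest, both AKI libraries lay between, and both CKD libraries were lowest. The mean was 26.4% ± 3.48 in AKI and 14.4% ± 0.221 in CKD, a difference of -11.9 percentage points (exact permutation p = 0.333, again the smallest possible). The cDC2 numbered 42 in the control and 79, 105, 234 and 150 in AKI 1, AKI 2, CKD 1 and CKD 2. With both types thinned to 4000 UMIs the shares were 61.5%, 19.0%, 16.7%, 13.2% and 4.62%, and AKI and CKD still did not overlap. These intervals cover counting error only.

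**Figure D2:**
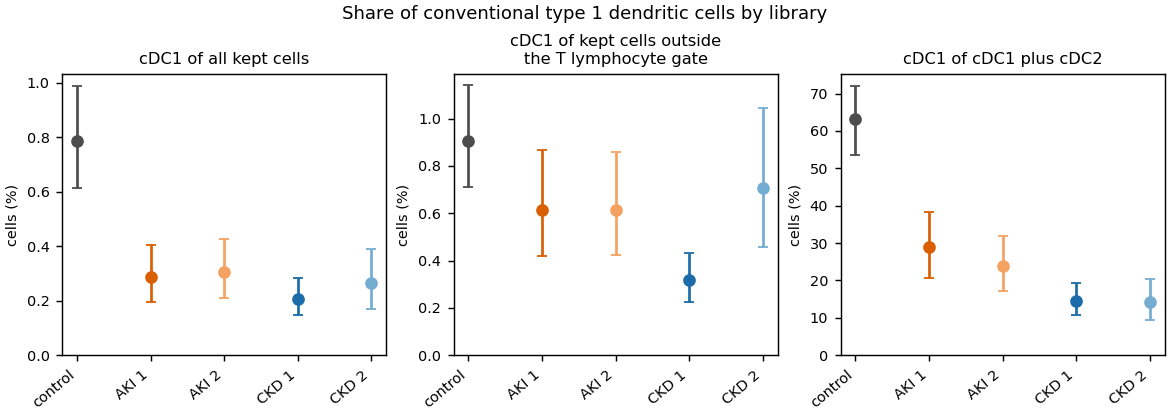
Share of cDC1 in each library, in percent, among all kept cells, among kept cells outside the T lymphocyte gate and among cDC1 and cDC2 together, with 95% exact binomial intervals as bars. The control lies highest in each panel, at 0.785%, 0.907% and 63.2%, and in the last panel both CKD libraries, at 14.6% and 14.3%, lie below both AKI libraries.

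Xcr1, on which the cells were chosen, was not detected equally in the libraries. At 4000 UMIs per cell, Xcr1 was detected in 77.1% of the control cDC1, 33.3% and 39.4% in the AKI libraries, and 51.4% and 32.0% in the CKD libraries. Clec9a was detected in 54.3%, 53.3%, 69.7%, 57.1% and 44.0% in the same order. The control was therefore high for Xcr1 and within the range of the others for Clec9a. As both genes chose the cells, these values are given with no test. With a limit of 1 UMI the control held 87 cells, the AKI libraries 52 and 55, and the CKD libraries 86 and 48. They then made up 67.4% of these cells and cDC2 in the control, 39.7% and 34.4% in AKI, and 26.9% and 24.2% in CKD. Whether the lower Xcr1 level left cDC1 of the AAI libraries below the limit of 2 was not tested.

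The control cDC1 were compared with the 4 AAI libraries gene by gene. Of 2543 genes with a level of at least 0.5, 31 (1.22%) were at least 2-fold above every AAI library in the control and 57 (2.24%) were at least 2-fold below every AAI library. The rule for these counts was added after values had been seen. Transcripts of other kidney cells led the higher set: Egf, a gene of the distal tubule, stood at 2.14 in control cDC1 and at 7.30 in the control T gate, and S100g, another distal tubule gene, at 8.10 and 21.7. For 17 of the 31 the control cDC1 level was at least 2-fold above the control T gate, and for 16 of the 57 the cDC1 level was at least 2-fold above the T gate in each AAI library. The genes described next are of these 17 and 16 unless a T gate value is given. The same rule was met in cDC2 by 12 of the 31 and 11 of the 57, and in C1q macrophages by 15 and 30.

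Among cDC1 identity genes, 2 were higher in the control and 1 was lower, of 16. Cadm1 stood at 1.61 in the control (95% Poisson interval 1.36 to 1.88), 0.473 and 0.730 in the AKI libraries, and 0.295 and 0.272 in the CKD libraries. Tlr3 stood at 1.32 in the control (1.10 to 1.58), 0.453 and 0.540 in the AKI libraries, and 0.551 and 0.504 in the CKD libraries. The control was high for both genes. In C1q macrophages Cadm1 met the same rule, at 1.27 in the control against 0.308 to 0.532. Itgae was reversed, at 0.431 in the control (0.309 to 0.584), 1.60 and 2.35 in the AKI libraries, and 1.02 and 1.49 in the CKD libraries. At 4000 UMIs per cell it was detected in 12.9% of control cDC1 (6.05% to 23.0%) and in 40.0%, 57.6%, 31.4% and 32.0% of the AAI libraries in that order, while in cDC2 it was detected in 0% to 4.17%. Without thinning the cDC1 shares were 37.5%, 68.8%, 84.8%, 47.5% and 52.0%. Itgae also met the rule in cDC2, from a level of 0 to at most 0.101, and its level in the T gate was 0.0539 in the control and 0.287 to 0.686 in the AAI libraries.

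Other genes higher in the control were Rtl8a at 2.44 against 0.631 to 0.920, Rtl8b at 1.59 against 0.349 to 0.571 and Xlr at 1.24 against 0.0159 to 0.276 in the AAI libraries. Cd180, a regulator of Toll-like receptor signalling, stood at 1.09 against 0.233 to 0.532, and Tgfbi, a matrix protein gene, at 1.52 against 0.504 to 0.709. In the T gate of the control all 5 were at 0.116 or below. None of the 5 met the rule in cDC2. Tgfbi was reversed in C1q macrophages, at 1.71 in the control against 3.44 to 6.70 in the AAI libraries. It was also reversed in the T gate, at 0.015 against 0.0468 to 0.0887.

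Genes lower in the control included 3 of 12 interferon-stimulated genes with a level, Cxcl9, Cxcl10 and Oasl1. Of 11 MHC class II pathway genes 1 was lower, Ifi30, and of 16 class I presentation genes 1, Tapbp. Of 9 genes of the cytokine and chemokine list 1 was lower, Ccl4. Over all genes 2.24% were lower. Tapbp, Cxcl10 and Ccl4 are given below with their T gate values. Cxcl9, the ligand of CXCR3 on T lymphocytes, stood at 1.07 in the control (0.874 to 1.30), 5.99 and 3.24 in the AKI libraries, and 5.85 and 2.85 in the CKD libraries, and between 0.0676 and 0.139 in the T gate of all 5 libraries. All 4 AAI libraries were higher, with no order between AKI and CKD. Ifi30, the lysosomal thiol reductase that prepares antigen for MHC class II, stood at 2.49 in the control (2.18 to 2.83), 8.06 and 10.3 in the AKI libraries, and 8.84 and 7.41 in the CKD libraries. Both genes met the same rule in C1q macrophages and not in cDC2. In those macrophages Cxcl9 stood at 0.740 in the control against 3.52 to 4.23, and Ifi30 at 1.81 against 6.66 to 11.7. Ifitm2 and Ifitm3, which encode interferon-induced membrane proteins, were 9.41-fold and 2.76-fold higher over the AAI libraries than in the control, and Oasl1 was 18.8-fold higher.

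Csf2rb, the shared chain of the GM-CSF receptor, stood at 0.284 in the control (0.187 to 0.413), 1.16 and 0.825 in the AKI libraries, and 0.788 and 1.07 in the CKD libraries. It met the rule in cDC2 as well, at 0.409 in the control against 1.13 to 1.54. The same held in C1q macrophages, at 0.194 against 0.390 to 0.594, and in the T gate, at 0.00337 against 0.0258 to 0.0365. Bcl2a1a, a survival gene, went from 0.326 to between 1.26 and 2.38, Plek from 1.20 to between 2.49 and 4.26, and Basp1 from 1.04 to between 2.65 and 4.81. Bcl2a1a also met the rule in cDC2, C1q macrophages and the T gate. Plek met it in C1q macrophages and the T gate, and Basp1 in the T gate. Tapbp, the tapasin gene of MHC class I loading, stood at 0.778 in the control and at 1.87 to 1.96 in the AAI libraries, with T gate levels of 0.870 and of 1.03 to 1.20.

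Of 8 mature dendritic cell genes with a level, 4 were lower in the control and none was higher. Ccl17, a chemokine for CCR4-bearing T lymphocytes, had no UMI in the control and stood at 0.0985, 0.841, 0.236 and 0.892 in AKI 1, AKI 2, CKD 1 and CKD 2, at least 17.0-fold higher over the AAI libraries against a floor of 3 UMIs in the control. Ccr7 stood at 0.0105 in the control, from 1 cell, and at 0.887, 0.302, 0.512 and 0.388, with T gate levels of 0.677 and of 0.624 to 0.824. At 4000 UMIs per cell Ccr7 was detected in 0% of the 70 control cDC1 that were deep enough, with an exact 95% interval of up to 5.13%, and in 13.3%, 3.03%, 20% and 8.00% of the AAI libraries. In cDC2 the shares were 20.5% in the control and 39.2% to 50% in the AAI libraries, so cDC1 lay below cDC2 in every library. Marcksl1 stood at 0.326 in the control and between 0.756 and 2.07 in the AAI libraries, with T gate levels of 0.150 and of 0.518 to 0.618. Outside cDC1, Ccl17 met the same rule in cDC2, C1q macrophages and the T gate. Ccr7 met it in cDC2 and C1q macrophages, and Marcksl1 in C1q macrophages and the T gate.

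Several of the larger differences involved transcripts that the T gate also held. Ccl4, an inflammatory chemokine gene, stood at 3.50 in the control (3.13 to 3.90), 17.2 and 18.8 in the AKI libraries, and 28.4 and 22.9 in the CKD libraries, with T gate levels of 11.6 in the control and 10.8 to 23.6 in the AAI libraries. Ccl5 went from 0.0736 to between 1.71 and 4.14, with T gate levels of 28.8 and of 37.4 to 64.7. In cells with no CD3 and no Ptprc UMI, Ccl5 stood at 0.197 in the control and at 1.65, 2.09, 4.35 and 2.83 in AKI 1, AKI 2, CKD 1 and CKD 2. Cxcl10 went from 0.935 to between 2.74 and 5.55, with T gate levels of 5.11 and of 13.8 to 15.4. S100a4 had no UMI in the control cDC1 and stood at 1.38, 0.413, 3.92 and 1.88 in the AAI libraries, with T gate levels of 4.01 and of 4.18 to 8.01. The part of free RNA in these 4 differences was not tested.

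**Figure D3:**
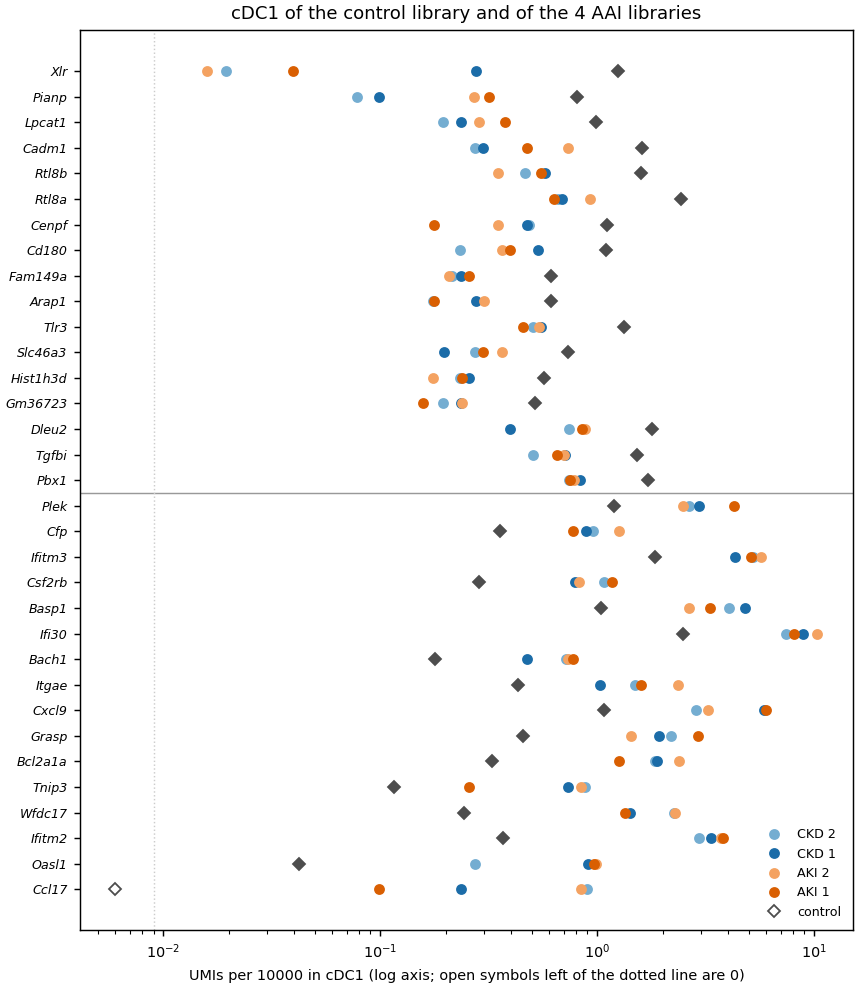
Levels in cDC1, in UMIs per 10000 on a log axis, of the 17 genes at least 2-fold higher (above the line) and the 16 at least 2-fold lower (under it) in the control than in every AAI library that also stood above the T gate, with diamonds for the control and circles for the AAI libraries; an open symbol is a level of 0. The control points of Cadm1 (1.61) and Tlr3 (1.32) lie above the AAI points, and those of Itgae (0.431), Cxcl9 (1.07) and Ifi30 (2.49) lie below them.

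CKD cDC1 were compared with AKI cDC1, 2 libraries against 2. No gene passed: edgeR's quasi-likelihood test called 0 of 4897 genes (0%) at a Benjamini-Hochberg adjusted p under 0.05, with 227 at an unadjusted p under 0.05 and a lowest adjusted p of 0.916. DESeq2 called 2, Mt1 and Mt2. With 2 libraries a group and 25 to 40 cells a library, a p that misses the threshold does not show that a gene was equal in both phases. The test of whether the change differed between cDC1 and cDC2 also called 0 of 6940 genes (0%) in edgeR, with 272 at an unadjusted p under 0.05, and 0 in DESeq2, with 37. In the cDC2 themselves, edgeR called 0 of 8018 genes, with 343 at an unadjusted p under 0.05.

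The metallothionein genes Mt1 and Mt2, which encode metal-binding stress proteins, were the 2 genes of the DESeq2 test. Mt1 stood at 7.05 and 4.22 in the AKI libraries, and 2.28 and 1.03 in the CKD libraries. Mt2 stood at 0.985, 0.714, 0.158 and 0.0194 in that order. Both were higher in each AKI library than in each CKD library, and in the control Mt1 was at 1.91 and Mt2 at 0.378. The edgeR adjusted p was 0.916 for each, with log2 differences of -1.83 ± 0.38 and -3.29 ± 0.57 (SE, CKD minus AKI).

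Of 11 MHC class II genes tested, 10 had a negative log2 difference (CKD minus AKI) and none passed, and the median was -0.31 (-0.17 without AKI 2), against -0.0024 over all genes. Cd74, the invariant chain, stood at 167 and 191 in the AKI libraries, and 145 and 158 in the CKD libraries. H2-Eb1 stood at 67.8, 68.9, 54.7 and 58.0, and H2-Oa, which restrains peptide loading, at 1.28, 1.33, 0.650 and 0.756. In each of these both CKD libraries lay below both AKI libraries. The control lay within the range of the AAI libraries for Cd74 and H2-Eb1, at 149 and 64.2, and beside AKI 2 for H2-Oa, at 1.33. The edgeR log2 differences were -0.31 ± 0.09, -0.34 ± 0.09 and -0.96 ± 0.23 (SE), each with an adjusted p of 0.916. H2-DMb1 was the gene with the opposite sign, at 6.23 and 6.70 in AKI and 7.74 and 7.27 in CKD. Summed over the list's genes that no gate used, cDC1 stood at 355.2 and 393.6 in AKI, and 310.7 and 337.4 in CKD. In cDC2 the sums were 470.5 and 457.3 in AKI, and 397.3 and 440.3 in CKD, so the order of the phases was shared.

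Of 17 cDC1 identity genes, 12 had a negative difference and none passed, with a median of -0.22 that became -0.08 without AKI 2 and -0.14 without CKD 1. Cadm1 gave -1.15 ± 0.35, Itgae -0.72 ± 0.27 and Ppt1 -0.39 ± 0.15 (SE, edgeR adjusted p = 0.916 for each). The log2 differences of the defining factors were near 0, with Irf8 at 0.15 ± 0.15, Batf3 at -0.23 ± 0.19 and Wdfy4 at 0.11 ± 0.19. Of 8 genes for the uptake of dead cells, 7 had a negative difference, with a median of -0.27 (-0.16 without AKI 2). Dnase1l3 was the lowest of them, at 1.02 and 1.24 in the AKI libraries, and 0.630 and 0.291 in the CKD libraries, with the control at 1.29 and a log2 difference of -1.36 ± 0.35 (edgeR adjusted p = 0.916). C1q macrophages shared that order of the phases, with Dnase1l3 at 0.819 and 0.663 in AKI, and 0.267 and 0.334 in CKD. In mature dendritic cells the groups overlapped, at 0.574 and 1.135 in AKI, and 0.628 and 0.673 in CKD.

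Of 9 genes of mature dendritic cells, 6 were negative, with a median of -0.28 that became -0.06 without AKI 1 (5 of 11 genes positive) and -0.50 without CKD 1. Cd83, a surface marker of maturation, stood at 4.26 and 5.09 in the AKI libraries, and 2.97 and 3.08 in the CKD libraries, with the control at 1.89. The CKD libraries lay between the control and the AKI libraries, and the log2 difference was -0.69 ± 0.17 (edgeR adjusted p = 0.916). Of 12 cytokine and chemokine genes, 8 were positive, with a median of 0.15 that turned to -0.09 without AKI 1, -0.66 without CKD 1 and -0.03 without CKD 2. Ccl4 was higher in both CKD libraries, by 0.45 ± 0.14, and Ccl9 lower, by -1.41 ± 0.40. Of 12 chemokine and cytokine receptor genes, 7 were positive, with a median of 0.04 that turned to -0.13 without AKI 2 and -0.08 without CKD 2.

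The lists that follow also had medians whose sign changed in at least 1 setting. Of 22 genes for presentation on MHC class I, 9 were positive, with a median of -0.06, of 18 interferon-stimulated genes 6, with -0.23, of 9 innate sensing genes 4, with -0.0048, of 9 costimulation and checkpoint genes 4, with -0.19, of 25 nuclear respiratory chain genes 16, with 0.13, and of 13 glycolysis genes 10, with 0.12. Of 8 lysosomal and osteoclast genes that mark CKD macrophages, 3 were positive, with a median of -0.27. Acp5, the gene of the phosphatase TRAP5 on which the study centred, was detected in 33 of the 202 cDC1. Its level was 0.0420 in the control, 0.0591 and 0.111 in the AKI libraries, and 1.30 and 0.233 in the CKD libraries. Both CKD libraries were higher than the others (log2 difference 3.04 ± 0.84, SE, edgeR adjusted p = 0.916). The T gate of the same libraries held more, at 0.478, 0.703, 0.858, 2.25 and 2.05, and C1q macrophages stood at 0.0870, 1.26, 2.40, 3.00 and 4.60.

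Immediate early and dissociation genes, which rise when tissue is digested, had a negative difference in 18 of 19, with a median of -0.51. Without AKI 1 the median was -0.13 and 8 of 19 genes were positive. Summed over the list they stood at 192 in the control, 209 and 166 in the AKI libraries, and 164 and 139 in the CKD libraries. AKI 2 and CKD 1 were nearly equal. Fos gave -0.51 ± 0.21 and Atf3 -0.64 ± 0.26 (edgeR adjusted p = 0.916 for each). Transcripts of the proximal tubule also differed between the libraries: of 8 such markers 6 were detected in each AKI library and 7 in each CKD library, with a summed level in cDC1 of 4.87 in the control, 3.07 and 3.87 in AKI, and 12.7 and 6.15 in CKD. Cyp4b1 and Kap were at 0 in both AKI libraries and Kap in both CKD libraries. The part of either in the differences above was not tested.

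**Figure D4:**
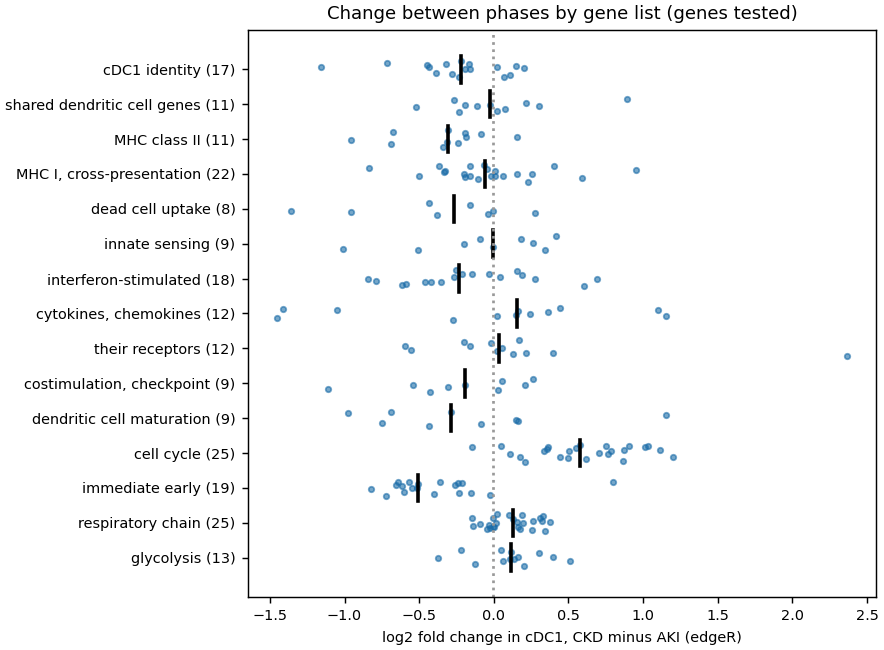
Log2 differences of CKD minus AKI in cDC1 from edgeR, with a circle for each gene of a list, a black bar at the list's median, the number of genes tested in brackets and a dotted line at the median of all genes. Of the 15 lists drawn, cell cycle has the highest median, 0.58, and immediate early the lowest, -0.51, and no gene passed the test in any list.

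Cell cycle genes set cDC1 apart from cDC2 in level and varied between libraries. Of 14 with a level, 5 were at least 2-fold higher in cDC1 and none was lower, against 6.21% higher and 9.53% lower over all genes. The summed level of all 25 genes of the list was 60.6 in the control, 34.8 and 62.4 in the AKI libraries, and 73.2 and 63.1 in the CKD libraries. AKI 1 was low, and the other 4 libraries, the control among them, lay together. Mki67, a marker of cycling cells, stood at 2.61 in the control, 0.631 and 1.76 in the AKI libraries, and 2.07 and 1.71 in the CKD libraries, and Top2a, the DNA topoisomerase of dividing cells, at 1.70, 0.256, 1.62, 1.73 and 2.31.

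At 4000 UMIs per cell, 32.9% of control cDC1 (22.1% to 45.1%) held a UMI of Mki67 or Top2a, as did 10.0% in AKI 1 (2.11% to 26.5%), 30.3% in AKI 2 (15.6% to 48.7%), 40.0% in CKD 1 (23.9% to 57.9%) and 28.0% in CKD 2 (12.1% to 49.4%). Without thinning the shares were 38.9%, 12.5%, 42.4%, 52.5% and 44.0%. In cDC2 at the same 4000 UMIs they were 15.4%, 8.33%, 18.6%, 23.3% and 16.4%. The cDC1 share was above the cDC2 share in 5 of 5 libraries. The list's median difference between CKD and AKI was 0.58, with 24 of 25 genes positive and none past the test. Over the 13 other settings of the fit it lay between 0.16 and 1.40, and since AKI 1 was the only low library, the difference depended on that library: without it the median was 0.16, and without AKI 2 it was 1.40.

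**Figure D5:**
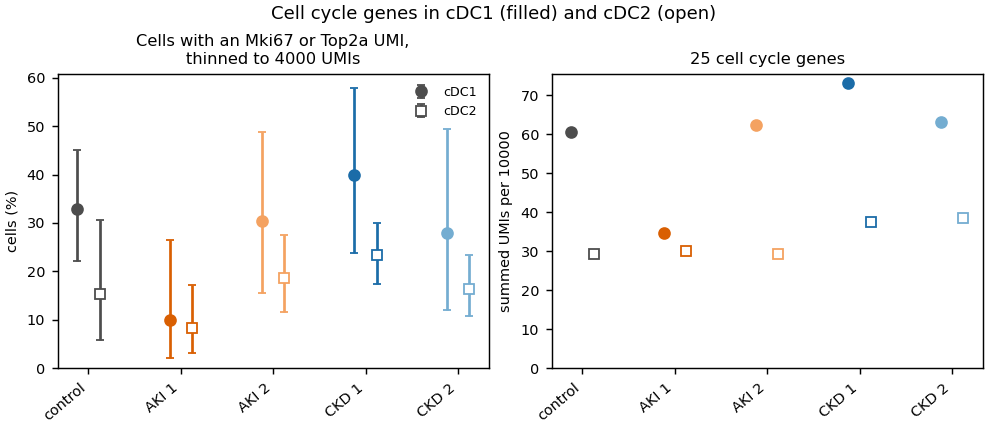
Share of cells with a UMI of Mki67 or Top2a after thinning to 4000 UMIs, in percent, with 95% exact binomial intervals as bars (left), and summed level of 25 cell cycle genes in UMIs per 10000 (right), for cDC1 (filled circles) and cDC2 (open squares) in each library. The cDC1 values lie above the cDC2 values in each library, and AKI 1 has the lowest cDC1 values, 10.0% and 34.8.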

How the data were processed

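Dissociated kidney cells were sequenced in 10x Genomics droplets. The authors deposited raw UMI counts per gene and barcode for each library, with no normalization. The submitters' processing notes name Cell Ranger 7.2.0, STAR and GRCm39, whereas the matrix headers of the AKI and CKD libraries name cellranger 5.0.0 and the gene list of the control names mm10. All libraries listed the same 32285 genes, matched by identifier. Symbols are those of the deposited gene lists.

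Cells were chosen by the limits in the text, and UMIs were summed per library. The CellBender and doublet steps of the study were not repeated. CKD and AKI sums were compared by the quasi-likelihood test of edgeR 4.0.16 under R 4.3.3 (TMM, filterByExpr, Benjamini-Hochberg adjustment over all genes tested), with DESeq2 1.42.0 as an alternative, and the difference of that change between cDC1 and cDC2 as an interaction with the library as a block. The SE beside an edgeR log2 difference is its absolute value divided by the square root of the test's F statistic. The fits were tested on simulated data with 200 changed genes. At an adjusted p under 0.05, the CKD against AKI fit recovered 24% of 2-fold and 74% of 4-fold changes, with 2 false calls. The fit of the difference from cDC2 recovered 5% and 49%, with 1 false call. Shares have exact binomial and levels exact Poisson intervals at the 95% level, which cover counting error only, and cells were thinned to a fixed number of UMIs where depth mattered. Cells below that number were left out of the thinned values. Python 3.11.15 with numpy 2.4.6, pandas 2.3.3 and scipy 1.17.1 was used.

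For CKD against AKI, the genes to be named were the 10 largest rises and 10 largest falls past the test with separate groups, and up to 5 genes a list with values where none passed; other genes were named after their values were seen. Against cDC2, the 10 largest ratios each way were named, among genes with a level of at least 0.5 and the same sign in every library. The cells, the lists and the tests were chosen with earlier results of these data known. Alternatives were another tool, filter, normalization, marker limit, mitochondrial limit or denominator, the replicate block, and each replicate left out.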

Additional observations from a re-analysis of the deposited data

How the results depend on the processing

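The count of 0 genes between CKD and AKI became 2 in DESeq2, 89 of 13853 with no filter on low counts and 8 with at least 3 Xcr1 and Clec9a UMIs. With a replicate block by sample number it stayed 0 (200 at an unadjusted p under 0.05); the numbers did not pair the libraries (r = 0.033 between the deviations of AKI 1 and CKD 1). Leaving out 1 library gave 0 to 155 genes (41 without AKI 1, 155 without AKI 2, 0 without CKD 1, 19 without CKD 2), the lone library then being assumed to vary like the other group. The count for the difference from cDC2 became 35 with no filter and 0 to 79 without 1 library (24 without AKI 1, 79 without AKI 2). The difference in the share of kept cells, -0.0598 points, became -0.101 outside the T gate, -0.0142 after thinning to 1500 UMIs and -0.0104 with at least 1 marker UMI, and that among cDC1 and cDC2 became -8.91 points after thinning to 4000 UMIs. With at least 1 marker UMI, a limit that admits more cells, the genes lower in the control became 104, those above cDC2 102 and those below cDC2 149. The causes of these moves were not tested. Signs of the medians of the MHC class II, cDC1 identity, mature dendritic cell, dead cell uptake, cell cycle and immediate early lists held in 13 of 13 settings, and the other lists described in the text changed sign in 1 to 5. Of the 13, the setting without barcodes shared with a deeper cell removed no cDC1, so it repeated the main fit and could not differ. Leaving out cells with 2 or more UMIs of markers of other cell types could not be fitted, since it left 0 cells. The cDC1 settings for the control, the cDC2 contrast and the cDC2 share were chosen after seeing the data. Between 25 and 72 cells a library limit all of these values.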

Other observations

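Xcl1 encodes the chemokine that XCR1 on cDC1 binds. In cells with a UMI of the NK receptor gene Ncr1 and none of the CD3 genes, it stood at 17.5 UMIs per 10000 in the control (80 cells), 29.7 in AKI 1 (12 cells), 36.7 in AKI 2 (11 cells), 30.2 in CKD 1 (27 cells) and 25.4 in CKD 2 (44 cells). In the T lymphocyte gate Xcl1 stood at 5.55, 8.29, 8.91, 3.65 and 4.49 in the same order, and in cells with no CD3 and no Ptprc UMI at 0.0258, 0.170, 0.173, 0.252 and 0.154. In the T gate as a whole both AKI libraries lay above the control and both CKD libraries below it. Among its cells with 2 or more Cd8a and Cd8b1 UMIs, Xcl1 stood at 3.82, 10.8, 11.15, 4.95 and 5.96 in the same order. In those cells, and in the NK gate, every AAI library lay above the control. Flt3l, the gene of the ligand of FLT3, stood between 0.198 and 0.296 in the T gate of all 5 libraries.

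The marker sums of other kidney cells differed between single libraries of cDC1. The 6 endothelial markers gave 192 UMIs in control cDC1, 59 and 4 in the AKI libraries, and 13 and 7 in the CKD libraries. Few cells held 2 or more of these UMIs: 6 in the control, 4 and 0 in the AKI libraries, and 3 and 1 in the CKD libraries. Slc12a3, the sodium chloride transporter of the distal tubule, stood at 1.97 in AKI 1 and at 0.589, 0.0635, 0.0394 and 0.0194 in the control, AKI 2, CKD 1 and CKD 2, and together with AA467197 it had the lowest adjusted p (0.242, edgeR) in the test of the difference from cDC2. Spp1, the osteopontin gene, stood at 21.2 in the cDC1 of AKI 1 and at 1.67, 3.46, 8.01 and 2.95 in the control, AKI 2, CKD 1 and CKD 2, against 4.16 to 21.9 in the T gate.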
